A study of Mus musculus with 160 samples.

Results

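Transcript levels of 9 lymphoid transcription factor genes were followed in 160 single mouse cells between induced endothelium and blood progenitors. The genes were Tcf7, Lef1, Bcl11a, Bcl11b, Ikzf1, Ikzf2, Ikzf3, Sox4 and Myb. They were taken as named members of the Tcf7, Bcl11 and Ikaros families with Sox4 and Myb. No threshold on their levels was used, but the list was drawn up with earlier results of these data known. All 9 had a row among the 23420 gene rows of the table.

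Cells were sorted from cultures of C57BL/6 pluripotent stem cells in which Runx1 and Hoxa9 were induced. The methods describe the iR9-ESC line, embryonic stem cells with a doxycycline-inducible Runx1-p2a-Hoxa9 cassette at the Rosa26 locus, while every label reads ESC/iPSC, so the line of a given cell cannot be told from its label. All 4 groups shared the induced factors, and no group lacked them. The 65 induced hematopoietic endothelial cells (iHECs) were sorted as CD31+CD41lowCD45-c-kit+CD201high. The induced hematopoietic progenitor cells (iHPCs) were iHEC progeny matured for 3, 6 or 10 days on OP9-DL1, a stromal line that displays the Notch ligand DL1, with IL3, Flt3L and SCF. They comprised 21 day-14 and 18 day-17 cells, sorted as CD45+ and negative for lineage markers that include CD2, CD3, CD4 and CD8, and 56 day-21 cells, sorted as Ter119-CD45+c-kit+CD127+. The gate therefore changed together with the day at each end of the series, and the effect of the day cannot be told apart from that of the gate. No label names a culture or an animal, so each group counted as 1 sample, no test was run, and every SD is the spread between cells.

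Tcf7 encodes TCF-1, an HMG-box factor that Notch signals switch on in the earliest thymic progenitors, and Lef1 encodes its close relative LEF-1. Bcl11a, a zinc finger gene, is needed for lymphoid progenitors, whereas its paralog Bcl11b is switched on when cells commit to the T lineage. Ikzf1, Ikzf2 and Ikzf3 encode Ikaros, Helios and Aiolos, zinc finger proteins that bind DNA as dimers and recruit the NuRD chromatin remodeling complex. Sox4 encodes a SoxC HMG-box factor used by B and T progenitors, and Myb encodes c-Myb, on which definitive hematopoiesis and early thymocytes depend.

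In the GENCODE vM21 annotation of GRCm38, 4 of the 9 genes lie on chromosome 11. These are Ikzf1 at chr11:11685003-11772926 and Bcl11a at chr11:24078056-24174123, both on the plus strand, and Tcf7 at chr11:52252371-52283014 and Ikzf3 at chr11:98464902-98546031, both on the minus strand. Lef1 lies at chr3:131110471-131224356 on the plus strand. The others are on the minus strand, Bcl11b at chr12:107910403-108003602, Ikzf2 at chr1:69531214-69687245, Sox4 at chr13:28948919-28953713 and Myb at chr10:21124935-21160984.

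Values are TPM (transcript abundances), which are scaled to gene length and to the same total in every cell, so they keep no read depth. A gene counted as detected in a cell above 1 TPM. Because genes used by every cell were also missing at times (Hprt was listed at 0 in 6 and Tbp in 28 of the 160 cells), a value of 0 is given only as listed at 0. The number of genes above 1 TPM, the available measure of library complexity, was lowest in iHECs, with a median of 4926, against 8200 on day 14, 8101 on day 17 and 6695.5 on day 21. A lower level in iHECs thus went with fewer genes detected, and the part of complexity in it was not tested.

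Some libraries resembled each other more than the rest. The log2(TPM + 1) values of 9 pairs correlated with a Pearson r above 0.95 over all genes, 4 pairs in iHECs (up to 0.994), 4 at day 14 (0.959 to 0.978) and 1 at day 17 (0.992). The median r of a group was between 0.659 and 0.900. Day 14 had no gap at this limit, since its next pair reached 0.947. Without read counts it could not be tested whether a pair differed by more than sampling noise, so values with each pair counted once (151 cells) are given where they differ. Detection of Bcl11a, Ikzf1, Myb and Lef1 matched within all 9 pairs, that of Tcf7 in 7 and that of Ikzf2 in 6.

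The gate for CD45 was compared with Ptprc, the gene that encodes it. Among the 95 sorted CD45+ cells, 4 had Ptprc at or below 1 TPM, namely cells 4 and 17 of day 14, cell 9 of day 17 and cell 49 of day 21. Both day-14 cells had high Pou5f1, which encodes the pluripotency factor Oct4, at 972 and 698 TPM, and 1 other iHPC passed 1 TPM for this gene, with 4.58 TPM. Cell 9 of day 17 held 194 TPM of Gata4, a gene of mesoderm and endoderm, and 2306 TPM of the keratin gene Krt8. These 2 genes were not confined to it. Krt8 passed 1 TPM in 17 of 18 day-17 cells (median 8.32 TPM) and 12 of 21 day-14 cells, and Gata4 in 6 of 18 day-17 cells. Cells 3 and 15 of day 17 had Ptprc and held 226 and 1447 TPM of Krt8, so leaving out cells without Ptprc keeps them. Among the iHECs, sorted as CD45-, 1 of 65, cell 64, had Ptprc above 1 TPM, with 53.9 TPM. Ptprc, Pou5f1, Gata4 and Krt8 were looked up after values of the factors in these cells had been seen, and results that rest on the 4 cells are given with and without them.

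The label of the iHECs matched their endothelial genes. The junction gene Cdh5 was detected in 63 of 65 iHECs but in 0 iHPCs of any day, and the mean log2(TPM + 1) of 7 endothelial genes was between 1.69 and 8.4 in iHECs against 0.00 and 1.25 in day-14 cells.

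**Figure D1:**
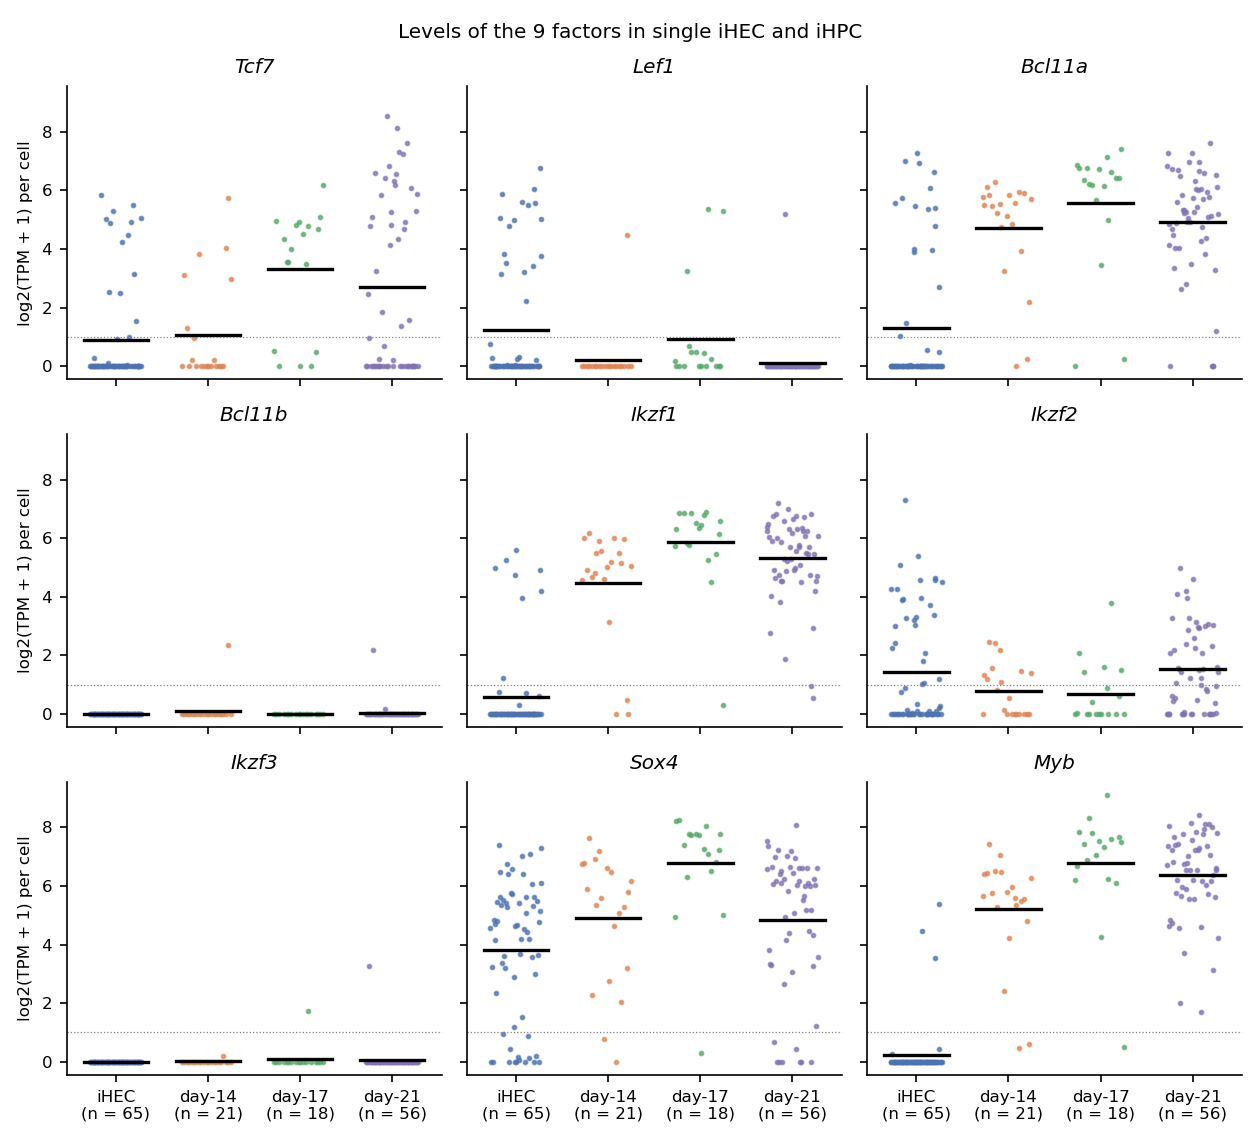
Levels of the 9 factors, as log2(TPM + 1) on the vertical axis, in iHECs and in day-14, day-17 and day-21 iHPCs. Each point is a cell, the black line is the group mean and the dotted line marks 1 TPM. Bcl11a, Ikzf1 and Myb lie above 1 TPM in most iHPCs, Tcf7 is split into cells with and without it in every group, and Bcl11b and Ikzf3 are near 0 throughout.

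Myb showed the sharpest contrast between endothelial and blood cells. It ranged from 0 to 41 TPM in iHECs with a median of 0, from 0.397 to 171 with a median of 49.4 at day 14, from 0.406 to 552 with a median of 165 at day 17, and from 2.26 to 341 with a median of 95.5 at day 21. Positive cells made up 3 of 65 iHECs (4.62%, with 0.962 to 12.9 as the 95% Clopper-Pearson interval), 19 of 21 day-14 cells (90.5%, 69.6 to 98.8), 17 of 18 day-17 cells (94.4%, 72.7 to 99.9) and 56 of 56 day-21 cells (100%, 93.6 to 100). These exact intervals, like all others here, cover counting error only. The 3 iHECs with Myb were cell 64, the cell with Ptprc, at 41 TPM, and cells 2 and 38 at 21 and 10.7 TPM, both with Ptprc listed at 0. Without the cells that lacked Ptprc, Myb was detected in 18 of 19 cells on day 14 and in all 17 on day 17, and the lowest day-17 value was 18.1 TPM.

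Ikzf1, the gene of Ikaros, followed the same order of groups. Its level lay between 0 and 47.2 TPM in iHECs (median 0), 0 and 71.3 at day 14 (median 32.3), 0.222 and 119 at day 17 (median 80.1) and 0.453 and 147 at day 21 (median 48.1). It was detected in 8 of 65 iHECs (12.3%, 5.47 to 22.8), 18 of 21 day-14 cells (85.7%, 63.7 to 97.0), 17 of 18 day-17 cells (94.4%, 72.7 to 99.9) and 54 of 56 day-21 cells (96.4%, 87.7 to 99.6). Of the 4 day-14 and day-17 cells without Ikzf1, 3 were the cells that lacked Ptprc. The exception was cell 15 of day 14, which had Ptprc but only 3103 genes above 1 TPM, the fewest of its group. With the cells lacking Ptprc left out, Ikzf1 was found in 17 of 17 day-17 cells, none of them below 21.9 TPM.

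Bcl11a, in contrast, already had a sizable minority of positive iHECs. It was detected in 17 of 65 iHECs (26.2%, 16 to 38.5), with a median of 41.3 TPM in those cells and a highest value of 153 TPM. Among iHPCs it was detected in 19 of 21 day-14 cells (90.5%, 69.6 to 98.8), 16 of 18 day-17 cells (88.9%, 65.3 to 98.6) and 52 of 56 day-21 cells (92.9%, 82.7 to 98.0). The group medians were 0, 44.1, 83.4 and 36.7 TPM in order of time. The median level in iHECs with Bcl11a was thus close to that in day-14 cells with Bcl11a, 45.99 TPM. These 2 groups differed mainly in how many cells had it. Ikzf1 showed a similar pattern, with medians of 27.4 and 34.9 TPM among the iHECs and day-14 cells with it. Fewer genes were above 1 TPM in iHECs, and the part of complexity in the lower shares was not tested.

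Bcl11b, the commitment factor, was nearly absent from the table. It passed 1 TPM in 0 of 65 iHECs, which allows a share of up to 4.62%, in 0 of 18 day-17 cells, which allows up to 16.7%, and in 1 cell each at day 14 (cell 17, 4.07 TPM) and day 21 (cell 19, 3.51 TPM). Cell 17 of day 14 was among the cells with Pou5f1 and without Ptprc, so 1 cell with Ptprc held Bcl11b above 1 TPM in the whole series.

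Tcf7 divided every group into cells with and without it. It was detected in 13 of 65 iHECs (20%, 11.1 to 31.8), 6 of 21 day-14 cells (28.6%, 11.3 to 52.2), 13 of 18 day-17 cells (72.2%, 46.5 to 90.3) and 28 of 56 day-21 cells (50%, 36.3 to 63.7). From iHECs to day 21 the highest values were 55.96, 52.3, 71.3 and 372 TPM, and the medians were 0, 0, 17.3 and 1.27 TPM. In cells where it was detected, the median level was 28.9, 10.5, 24.7 and 47.1 TPM. The highest value at day 14 was that of cell 17 and the highest at day 17 that of cell 9, both without Ptprc. Once the cells without Ptprc were left out, Tcf7 was found in 4 of 19 day-14 cells with a highest value of 13.3 TPM, in 12 of 17 day-17 cells with a highest value of 33.3 TPM, and in 27 of 55 day-21 cells. With near-identical libraries counted once, the share was 4 of 17 cells (23.5%, 6.81 to 49.9) at day 14 and 12 of 17 (70.6%, 44 to 89.7) at day 17.

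Lef1 went the other way. It was detected in 17 of 65 iHECs (26.2%, 16 to 38.5) with a highest value of 108 TPM, but in 1 day-14 cell of 21, 3 day-17 cells of 18 and 1 day-21 cell of 56. The day-14 cell was cell 4 (21.5 TPM), which had Pou5f1 and no Ptprc. The day-17 cells were cells 3, 9 and 15 at 8.57, 38.6 and 40.4 TPM, and they were also the 3 day-17 cells with the most Gata4, at 26.8, 194 and 138 TPM against 3.21 TPM in the next. Of these, cell 9 lacked Ptprc, whereas cells 3 and 15 had it at 78.4 and 50.6 TPM, and cell 15 held 1447 TPM of Krt8 as well. The single day-21 cell, cell 21, had 35.9 TPM of Lef1 with 84.4 TPM of Tcf7.

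Among the other Ikaros family genes, Ikzf2 was low but widely scattered and Ikzf3 almost missing. Ikzf2, which encodes Helios, was detected in 26 of 65 iHECs (40%, 28 to 52.9), 9 of 21 day-14 cells (42.9%, 21.8 to 66.0), 5 of 18 day-17 cells (27.8%, 9.69 to 53.5) and 31 of 56 day-21 cells (55.4%, 41.5 to 68.7). Its highest value was in iHECs, at 157 TPM, against at most 4.52, 12.8 and 30.5 TPM in the later groups. The 4 shares have overlapping intervals, and with near-identical libraries counted once the day-14 share became 5 of 17 (29.4%). Ikzf3, which encodes Aiolos, passed 1 TPM in 1 day-17 cell (cell 15, 2.33 TPM) and 1 day-21 cell (cell 48, 8.68 TPM), and in 0 of 65 iHECs and 0 of 21 day-14 cells, which allows shares of up to 4.62% and 14.3%.

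Sox4 was the factor most iHECs already had. It was detected in 50 of 65 iHECs (76.9%, 64.8 to 86.5), 19 of 21 day-14 cells (90.5%, 69.6 to 98.8), 17 of 18 day-17 cells (94.4%, 72.7 to 99.9) and 48 of 56 day-21 cells (85.7%, 73.8 to 93.6). In the same order the medians were 22.9, 47.1, 160.4 and 63.2 TPM and the highest values 168, 198, 308 and 267 TPM. Day 17 was the group with the highest median and mean for Sox4 as for Myb, Ikzf1, Bcl11a and Tcf7, although all 4 groups overlapped for each of these genes.

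On the scale of mean log2(TPM + 1), the order of the groups was iHEC, day 14, day 21 and day 17 for Tcf7, Bcl11a, Ikzf1 and Myb. For Tcf7 the means were 0.88 ± 1.79 (SD, n = 65 cells), 1.07 ± 1.75 (n = 21), 2.71 ± 2.98 (n = 56) and 3.33 ± 2.1 (n = 18). For Myb they were 0.22 ± 0.96, 5.22 ± 1.87, 6.37 ± 1.5 and 6.78 ± 1.88, for Ikzf1 0.57 ± 1.51, 4.49 ± 1.94, 5.31 ± 1.41 and 5.86 ± 1.54, and for Bcl11a 1.3 ± 2.35, 4.72 ± 1.82, 4.91 ± 1.87 and 5.59 ± 2.18. For Myb, Ikzf1 and Bcl11a the step from iHEC to day 14 was larger than the SD of either group, and the steps between neighbors among the 3 iHPC groups were smaller than the SD of each neighbor. Sox4 stood at 3.81 ± 2.36, 4.92 ± 2.21, 6.79 ± 1.88 and 4.85 ± 2.37 from iHEC to day 21, and Ikzf2 at 1.45 ± 1.93, 0.79 ± 0.88, 0.68 ± 1.04 and 1.53 ± 1.42.

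The first comparison asks what changed as iHECs became day-14 iHPCs. A difference in mean log2(TPM + 1) of at least 2, later minus earlier, was taken as past the fold. The 9674 genes detected in over 30 of all 160 cells served as background and are called all genes below. Consecutive comparisons share a group, so their differences are not independent. Tcf7, Bcl11a, Ikzf1, Ikzf2, Sox4 and Myb passed that filter, and Lef1, Bcl11b and Ikzf3 did not. Of the 9 factors 3 rose past the fold, Myb by 5.0, Ikzf1 by 3.91 and Bcl11a by 3.42, while 0 fell. Among all genes 25.7% rose past the fold. The 3 factors were all among the 6 that passed the same filter, so the like count is 3 of 6. With so few factors and no test run, this count is not read as different from the share of all genes. Past the fold 5.63% of all genes fell, and the median difference was 0.93. Relative to this median the 3 differences were 4.08, 2.99 and 2.49. Sox4 differed by 1.10 and Tcf7 by 0.18, which is -0.74 relative to the median, and without the cells lacking Ptprc the difference of Tcf7 was -0.22. Lef1 differed by -1.02, or by -1.23 without those cells.

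For the 3 factors past the fold, Bcl11a, Ikzf1 and Myb, the sequence before a RefSeq start site of each is shown. It is the farthest upstream where several are listed (build GRCm38.p6, read 5′ to 3′ on the strand of the gene). RefSeq promoter entries matched 7 of the 9 factors. Capitals mark matches to short words known from the binding sites of factor families, searched on both strands: TGTGGT for RUNX, AGATAA for GATA, and CTTTGA or CTTTGT for TCF/LEF. The windows hold the 250 bases before the start, and that of Bcl11a ends after 225 bases, before an annotated exon. By the GENCODE coordinates above, the windows of Bcl11a and Ikzf1 lie inside the gene, past its annotated start, and that of Myb lies outside it.
Bcl11a, chr11:24080445-24080669, plus strand: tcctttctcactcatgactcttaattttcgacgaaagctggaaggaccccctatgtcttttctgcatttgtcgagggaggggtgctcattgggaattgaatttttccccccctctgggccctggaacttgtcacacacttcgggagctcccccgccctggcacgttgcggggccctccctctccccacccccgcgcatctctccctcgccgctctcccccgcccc
Ikzf1, chr11:11685675-11685924, plus strand: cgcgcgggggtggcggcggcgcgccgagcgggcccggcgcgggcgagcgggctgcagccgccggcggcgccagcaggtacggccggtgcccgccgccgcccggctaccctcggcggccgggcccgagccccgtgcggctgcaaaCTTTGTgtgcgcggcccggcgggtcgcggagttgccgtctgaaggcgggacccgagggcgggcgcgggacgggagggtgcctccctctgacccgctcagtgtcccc
Myb, chr10:21160985-21161234, minus strand: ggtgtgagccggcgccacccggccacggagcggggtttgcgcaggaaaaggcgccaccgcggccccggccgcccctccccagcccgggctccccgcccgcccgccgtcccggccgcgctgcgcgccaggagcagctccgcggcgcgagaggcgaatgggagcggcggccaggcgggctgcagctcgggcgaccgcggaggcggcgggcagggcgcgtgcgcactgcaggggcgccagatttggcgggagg
The 3 windows were rich in G and C, with 60.4% in Bcl11a, 82% in Ikzf1 and 81.2% in Myb against a median of 52.4% over all 32817 windows of 250 bases. The RUNX and GATA words had 0 matches in the 3 windows, and the TCF/LEF words had 1, in Ikzf1, from 106 to 101 bases before the start. Of all windows of 250 bases, 14% held the RUNX word, 9.99% the GATA word and 27.6% a TCF/LEF word, and of those of 225 bases 13%, 9.3% and 25.7%. A missing match says only that these letters are not in these windows.

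**Figure D2:**
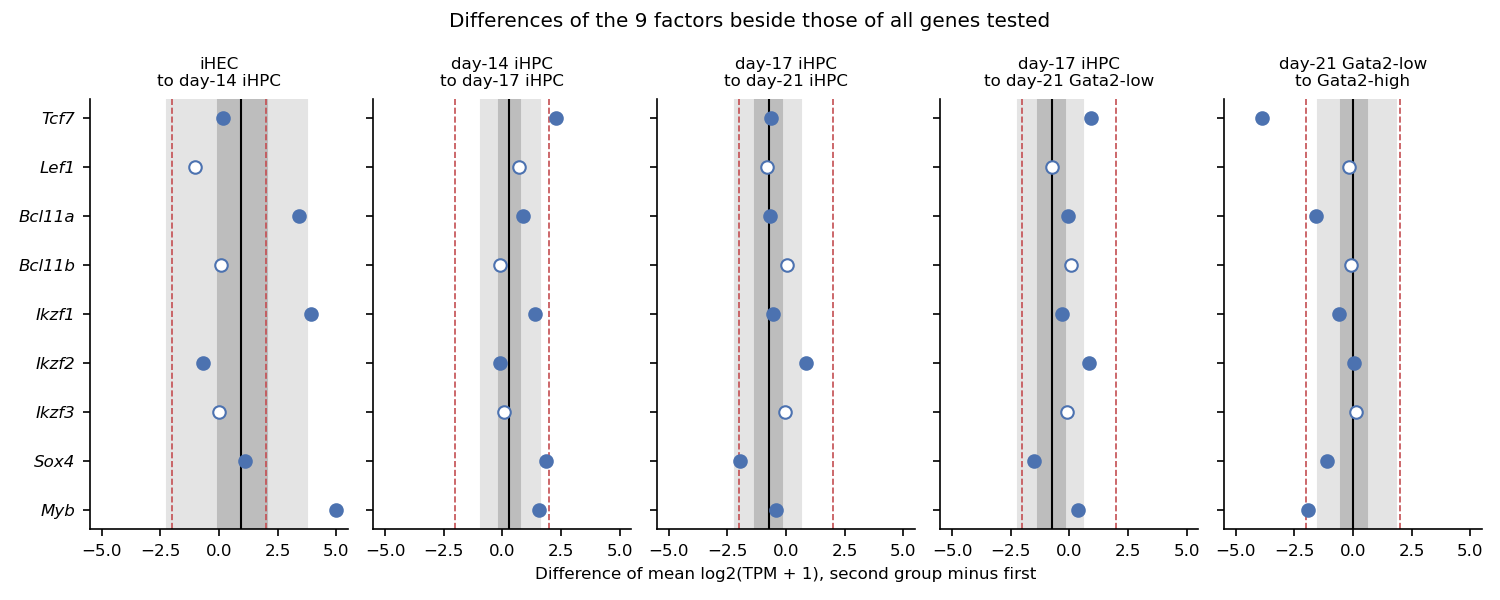
Difference of mean log2(TPM + 1), second group minus first, of the 9 factors in 5 comparisons. Filled points are factors that passed the filter on low values and open points are those that did not, the dark and light bands hold the middle 50% and 90% of all genes tested, the black line is their median and the dashed lines mark a difference of 2 either way. Myb, Ikzf1 and Bcl11a lie beyond the line from iHEC to day 14, Tcf7 from day 14 to day 17, and Tcf7 on the low side in day-21 cells with high Gata2.

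From day 14 to day 17, Tcf7 was the 1 factor of 9 to rise past the fold, by 2.26, and 0 fell. Among all 9674 genes 2.76% rose and 0.62% fell past the fold, with a median difference of 0.28, and relative to that median Tcf7 differed by 1.99, just under the fold. The difference was 2.23 with near-identical libraries counted once, and 2.50 without the cells lacking Ptprc, which is 2.23 relative to the median then found. Sox4 differed by 1.87, Myb by 1.56, Ikzf1 by 1.38 and Bcl11a by 0.87, so these 5 factors were all higher on average at day 17. Their SDs between cells were 1.54 or more in both groups, and cells of both days overlapped for each gene.

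From day 17 to day 21, 0 of the 9 factors rose and 0 fell past the fold, where 0.755% of all genes rose and 7.76% fell. The median difference of all genes was -0.74. Sox4 had the most negative difference, -1.94, and Ikzf2 the most positive, 0.84. Tcf7, Bcl11a, Ikzf1 and Myb differed by -0.62, -0.67, -0.55 and -0.41, each within 0.33 of the median. The day-21 cells were a mixture for Tcf7, as the split by Gata2 showed.

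Gata2 is a zinc finger factor of stem and mast cell programs, and day-21 cells fell on both sides of the limit of 31 TPM used to divide them. There were 22 cells at or above it, from 66.0 to 1739 TPM, and 34 below it, the highest at 9.18 TPM. The number of genes above 1 TPM had a median of 6665.5 in Gata2-high and 6769.5 in Gata2-low cells. The cells differed in other lineage genes. All 22 Gata2-high cells had Mcpt4 and Cma1, which encode mast cell proteases, with medians of 15876 and 9346 TPM, against medians of 19.98 and 9.25 TPM in Gata2-low cells, and 7 of 9 mast cell or basophil genes were past the fold higher. The mean log2(TPM + 1) of those 9 genes lay between 4.29 and 8.69 in Gata2-high and between 1.29 and 3.91 in Gata2-low cells. Tpsb2, also on that list, was listed at 0 in every cell. The part of these programs in the differences below was not tested.

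Tcf7 was found almost wholly on the Gata2-low side. It was detected in 26 of 34 Gata2-low cells (76.5%, 58.8 to 89.3), between 0 and 372 TPM with a median of 31.4, and in 2 of 22 Gata2-high cells (9.09%, 1.12 to 29.2), between 0 and 26.4 TPM with a median of 0. Mean log2(TPM + 1) was 4.23 ± 2.82 against 0.34 ± 1.05, a difference of -3.89 for high minus low. Of the 9 factors 1 fell past the fold, Tcf7, and 0 rose, where 2.57% of the 9277 genes tested within day 21 fell and 4.15% rose. The 2 exceptions were cells 27 and 49. Cell 27 had 26.4 TPM of Tcf7 with 92.9 TPM of Gata2 and 7198 TPM of Cpa3, the gene of mast cell carboxypeptidase, and it had 691 TPM of Cd3g, a T-cell receptor complex gene, with 3932 genes above 1 TPM. Cell 49 had 1.61 TPM of Tcf7 with 354 TPM of Gata2 and was the day-21 cell without Ptprc. Il7r, which encodes the CD127 used in the gate, was listed at 0 in both, as in other Gata2-high cells such as cells 4, 11 and 12. Its mean log2(TPM + 1) was 1.63 in Gata2-high and 5.39 in Gata2-low cells, although all were sorted as CD127+.

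Myb was present in every day-21 cell but at lower levels in Gata2-high cells. It ranged from 2.26 to 129 TPM with a median of 49.3 in the 22 Gata2-high cells and from 12 to 341 TPM with a median of 159 in the 34 Gata2-low cells. The means were 5.20 ± 1.44 and 7.13 ± 0.94, a difference of -1.93, just short of the fold, and of -1.76 without cell 49. Bcl11a was detected in 19 of 22 Gata2-high and 33 of 34 Gata2-low cells with medians of 26.2 and 53 TPM, and its mean differed by -1.55. The median level of both genes was thus higher in Gata2-low cells, with overlap of the single cells.

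Of the 6 factors that passed the filter, Ikzf1 and Ikzf2 differed least. Ikzf1 was detected in 21 of 22 Gata2-high and 33 of 34 Gata2-low cells, with medians of 35.5 and 56.2 TPM and a difference in mean log2(TPM + 1) of -0.59. Ikzf2 was detected in 13 of 22 and 18 of 34 cells, with medians of 1.51 and 1.58 TPM and a difference of 0.04. Sox4 was found in 18 of 22 and 30 of 34 cells, with medians of 25.7 and 67.0 TPM and a difference of -1.08. The level of Sox4 followed the number of genes above 1 TPM more than that of any other factor in the day-21 cells, with a Spearman correlation of 0.65 over 56 cells, given as a description of cells that share a sort and a preparation.

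**Figure D3:**
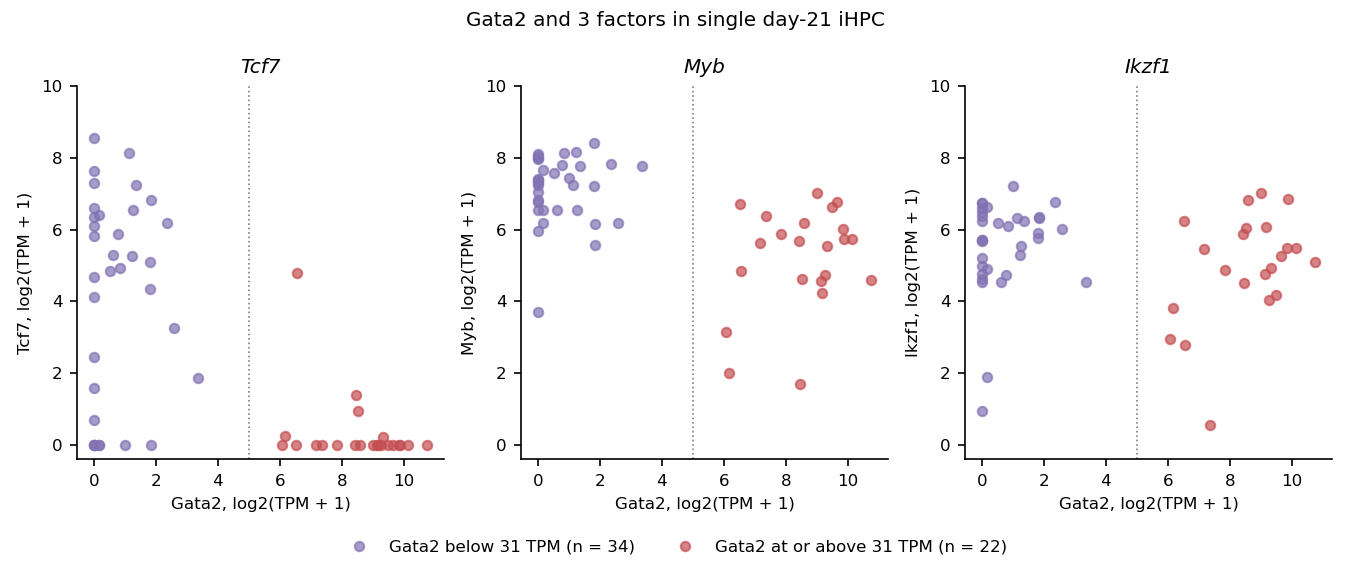
Tcf7, Myb and Ikzf1 against Gata2 in the 56 day-21 iHPCs, both axes as log2(TPM + 1), each point a cell. Cells below 31 TPM of Gata2 (dotted line) are violet and the 22 cells at or above it are red, and Tcf7 is detected in 2 of the red cells, whereas Myb and Ikzf1 are found on both sides.

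Taking only the 34 Gata2-low cells as the later group, 0 of the 9 factors rose and 0 fell past the fold from day 17, where 0.424% of all genes rose and 8.12% fell. This choice of cells was made with the data in view. The median difference of all genes was -0.74. Tcf7 differed by 0.90, Ikzf2 by 0.82 and Myb by 0.35, and relative to the median these differences were 1.65, 1.57 and 1.09. Sox4 was lower than on day 17, with a difference of -1.52. The detected share of Tcf7 was 72.2% at day 17 and 76.5% in Gata2-low day-21 cells, with overlapping intervals, but the median among cells with Tcf7 was 24.7 TPM at day 17 and 57.1 TPM in the Gata2-low cells.

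Detection in the same cell was counted next, although the shares of the single genes already set much of the outcome. Since Myb was detected in 3 of 65 iHECs, at most 3 could hold all 3 genes below, while most iHPCs had each of them. Bcl11a, Ikzf1 and Myb shared a cell in 0 of 65 iHECs, which allows a share of up to 4.62%, but in 17 of 21 cells on day 14, 16 of 18 on day 17 and 52 of 56 on day 21. Without the cells lacking Ptprc these numbers were 17 of 19, 16 of 17 and 51 of 55. Tcf7 joined the 3 in 4 day-14 cells, 12 day-17 cells and 26 day-21 cells. Of the latter, 25 were Gata2-low, and the 1 Gata2-high cell was cell 49, without Ptprc. The median number of the 9 factors detected per cell was 2 in iHECs, 4 at day 14 and 5 at days 17 and 21, and 25 of the 65 iHECs held exactly 1 factor. The median number of genes above 1 TPM was also lower in iHECs, 4926 against 8200, 8101 and 6695.5 in order of time. The part of complexity in the number of factors was not tested.

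**Figure D4:**
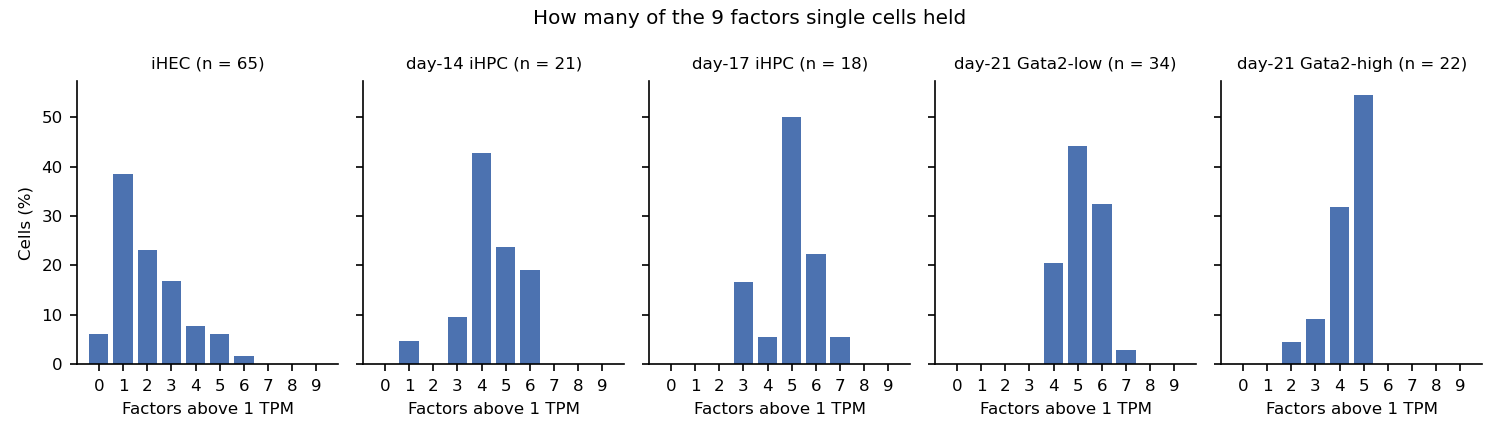
Share of cells (%) by the number of the 9 factors above 1 TPM, in iHECs, day-14 and day-17 iHPCs, and day-21 iHPCs with Gata2 below (low) or at or above (high) 31 TPM. The tallest bar stands at 1 factor in iHECs, at 4 at day 14 and at 5 in the other groups, and up to 7 factors were found in a cell.

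Within iHECs some pairs of factors were found in the same cells. Among the 13 iHECs with Tcf7, 7 also had Lef1, against 10 of the 52 without Tcf7. The former cells also had more genes above 1 TPM, with a median of 5867 against 4850.5, and the part of complexity in this count was not tested. Of the 17 iHECs with Bcl11a, 12 had Ikzf2, against 14 of 48 without it, with medians of 5489 and 4777 genes. Ikzf1 was detected in 4 of the 17 cells with Bcl11a (23.5%) and in 4 of the 48 without it (8.33%). These counts include near-identical pairs as separate cells. Cells 5 and 6 both had Bcl11a, Ikzf1 and Ikzf2, cells 24 and 25 both had Tcf7 and Lef1, and cells 15 and 16 both had Lef1 without Tcf7. Of the 3 iHECs with Myb, cell 2 had Ikzf1 (14.6 TPM) and Tcf7 (17.8 TPM), cell 38 had Bcl11a (26.3 TPM) and Lef1 (46.5 TPM), and cell 64 had Bcl11a (5.45 TPM).

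Detection of the other factors was compared between iHPCs with and without Tcf7 in each group. At day 14, Ikzf1 was found in 4 of 6 cells with Tcf7 and 14 of 15 without, Ikzf2 in 4 and 5, and Bcl11a and Myb each in 5 and 14. Both cells lacking Ptprc are among those 6, and the other 4 all had Ikzf1, Bcl11a and Myb. At day 17, Bcl11a was found in 12 of 13 cells with Tcf7 and 4 of 5 without, Ikzf1 and Myb each in 12 and 5, Sox4 in 13 and 4, and Lef1 in 3 and 0. Cell 9, which lacked Ptprc, is among those 13, and the other 12 all had Bcl11a, Ikzf1 and Myb. With 5 to 15 cells a class, differences of this size rest on a few cells. In the 26 Gata2-low day-21 cells with Tcf7, Bcl11a was detected in 25, Ikzf1 in 25, Sox4 in 23 and Myb in 26, and in the 8 without Tcf7 these counts were 8, 8, 7 and 8. Median TPM in cells with and without Tcf7 was 159 and 139 for Myb and 58.8 and 45.6 for Bcl11a, whereas Ikzf1 was lower with Tcf7, at 50.9 against 89.2 TPM. At day 17 Ikzf1 ran the other way, with a median of 81.1 TPM in the 13 cells with Tcf7 and 51.8 in the 5 without. The medians there were 213 and 90.04 TPM for Sox4, 171 and 72.7 for Myb, and 81.4 and 85.9 for Bcl11a.

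Early T-lineage genes were compared in the same way within the 34 Gata2-low cells, a division made after the data had been seen. Of 16 listed genes 12 had a higher and 4 a lower mean in cells with Tcf7, with a median difference of 1.05 in log2(TPM + 1). No share or median over all genes was computed for this division. These counts and those past the fold therefore have no background beside them. Past the fold, 2 were higher, Cd3g and Rag2, and 1 was lower, Cd7. Thy1 (-1.20), Notch1 (-0.26) and Dtx1 (-0.25) were the others with a lower mean, and Il7r (0.20), Hes1 (0.44) and Gata3 (0.56) differed by less than Ikzf1 did (-1.01). Cd3g was above 1 TPM in 22 of 26 cells with Tcf7 (median 104 TPM) and 4 of 8 without (median 3.8), and Rag2, which encodes part of the recombinase of antigen receptor genes, in 26 of 26 (median 106) and 7 of 8 (median 10.8). Mean log2(TPM + 1) was 6.23 ± 3.85 against 2.39 ± 2.33 for Cd3g and 6.58 ± 1.11 against 3.91 ± 2.39 for Rag2. Lck, a kinase of T-cell receptor signaling, was found in all 34 cells with medians of 817 and 424 TPM. Cd7, a surface protein of T and innate lymphocytes, ran opposite, with a median of 183 TPM in cells with Tcf7 and 1099 TPM in those without. The number of genes above 1 TPM had medians of 6843.5 and 6357, and the part of complexity in these differences was not tested. At day 17, 12 of the 16 genes had a higher and 3 a lower mean in the 13 cells with Tcf7 than in the 5 without. Past the fold 4 were higher, among them Lck, Cd7 and Il7r, and 0 were lower. Cd7 thus ran the other way there, with medians of 326 and 74.4 TPM. Rag2 differed by 1.29, with medians of 32.8 and 42.2 TPM. The day-17 division has no background either.

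**Figure D5:**
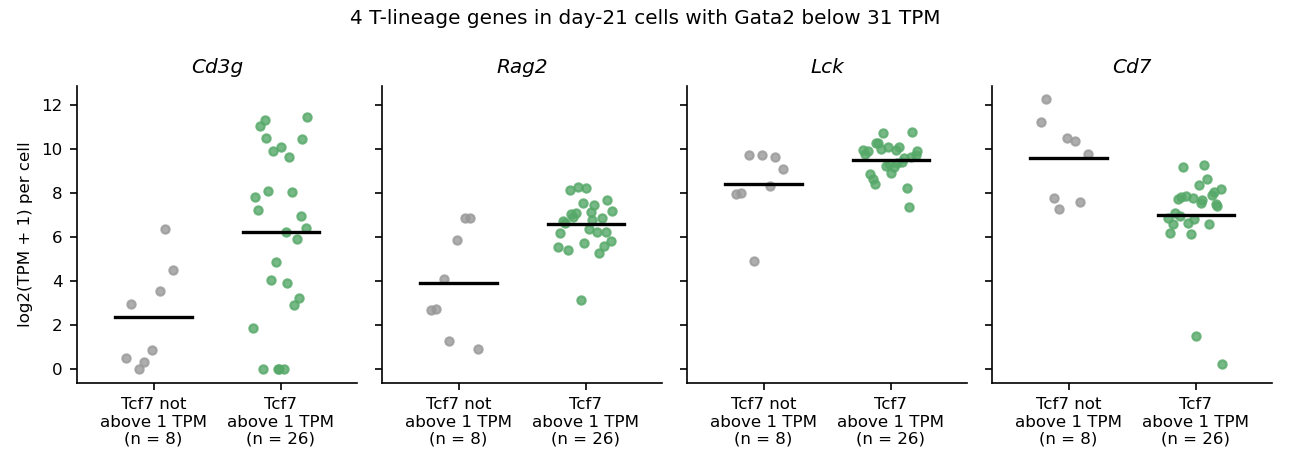
Cd3g, Rag2, Lck and Cd7, as log2(TPM + 1) on the vertical axis, in the 34 day-21 iHPCs with Gata2 below 31 TPM, by whether Tcf7 was above 1 TPM (26 cells) or not (8 cells). Points are cells and lines are means, which are higher with Tcf7 for Cd3g, Rag2 and Lck and lower for Cd7, and the cells of both classes overlap in each panel.

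The genes most like each factor were ranked by Spearman correlation of log2(TPM + 1) over the 56 day-21 cells, which share a sort and a preparation. These cells mix 34 Gata2-low and 22 Gata2-high cells. For high minus low, Tcf7 differed by -3.89, Lck by -7.79 and Cd3g by -4.48. The part of this mixture in the ranks was not tested, and no ranking was made within the Gata2-low cells. For Tcf7 the 5 highest were Lck (0.74), Cd160 (0.73), Ly6d (0.72), Cd3g (0.70) and Glrx3 (0.70). The first 4 encode lymphocyte kinase, surface or receptor proteins, and the last a glutaredoxin found in all 56 cells. Cd160 was detected in 18 and Ly6d in 34 of the 56 cells. For Myb the 5 were Nrgn (0.72), Epsti1 (0.71), Timp2 (0.68), Srsf7 (0.68) and Ezr (0.67). For Sox4 they were Fkbp5, Zfp444, Trim28, Ptov1 and Rnf187, from 0.73 to 0.70, and for Bcl11a 1190002N15Rik, Nup37, H2afv, Gpr25 and Samhd1, from 0.60 to 0.53. For Ikzf1 they were Pmf1, Cnpy4, Sin3a, Sfr1 and Ffar2 (0.55 to 0.50), and for Ikzf2 4922501C03Rik, Fnip1, 2010003O02Rik, Nup205 and Pds5b (0.49 to 0.44). After removal of a trend with library complexity, 4 of the 5 genes were again among the top 5 for Tcf7 but 1 of 5 for Sox4.

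The same measure was taken over all 160 cells, which pool the 4 groups. Myb was most like Psmb8, Ptprc, Plac8, Ezr and Lrmp (0.89 to 0.88), and Ikzf1 was most like Parvg, Arhgap9, Myb, Psmb8 and Plac8 (0.82 to 0.79), so Myb was itself among the 5 for Ikzf1. Tcf7 was most like Timp2 (0.57), Plekha7, Ly6d, Nrgn and Dpp4 (0.54). Within the 34 Gata2-low cells the correlation of Tcf7 with Bcl11a, Myb and Sox4 was 0.05, -0.03 and 0.07, and that with Ikzf1 was -0.32.

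Among iHPCs of day 14 and day 17, Myb and Sox4 varied together from cell to cell, with Spearman correlations of 0.73 (n = 21) and 0.65 (n = 18). Pearson's r was 0.34 and 0.63, so at day 14 the relation held for ranks more than for levels. Over the 34 Gata2-low cells of day 21 it was 0.23. At day 14 both also followed the number of genes above 1 TPM (0.50 for Myb and 0.55 for Sox4), while at day 17 they did not (-0.17 and -0.20).

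Partners of these factors were described from lists chosen by function, with counts over all genes listed, whether or not they passed the filter on low values. From iHEC to day 14, 0 of 8 TCF/LEF partners passed the fold either way (median 0.21), the most negative being Tcf7l2, a TCF paralog, at -1.89, and Ctnnb1, which encodes β-catenin, at -1.60. Of 12 Ikaros paralogs and NuRD subunits 3 rose, a share close to the 25.7% of all genes that rose, and 0 fell (median 1.22). The 3 were Mbd3 by 3.30, Gatad2a by 2.41 and Mta2 by 2.20. Of 4 Myb and SoxC paralogs 1 rose, the cell-cycle gene Mybl2 by 5.44, and 0 fell. Of 16 early T-lineage genes 0 passed the fold (median 0.02). The median of all genes in this comparison was 0.93.

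From day 14 to day 17, 7 of the 16 early T-lineage genes rose, where 2.76% of all genes did, and 0 fell (median 1.22 against 0.28 for all genes). Cd7 rose by 5.89, Lck by 5.77, Ptcra, the gene of the pre-T-cell receptor alpha chain, by 5.38 and Il7r by 4.55. None of the TCF/LEF partners, Ikaros paralogs and NuRD subunits or Myb and SoxC paralogs passed the fold, with medians of 0.44, 0.58 and 0.07, and the largest difference among them was 1.88 in the corepressor gene Tle4. The rise of Tcf7 thus came at the step at which these T-lineage genes rose, in cells of both days that were sorted without surface CD2, CD3, CD4 and CD8. At the same step 2 of 7 neutrophil or monocyte genes fell, Mpo by 4.41 and Csf1r by 3.46, and 1 of 9 mast cell or basophil genes rose, Cpa3 by 3.20. Their part in the rise of Tcf7 was not tested.

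From day 17 to day 21, 1 early T-lineage gene rose, Cd3g by 3.38, and 0 fell, and Mybl2 was the 1 paralog to fall, by 3.49. The TCF/LEF partners and the Ikaros and NuRD genes had 0 past the fold, with medians of -0.98 and -0.59 beside -0.74 for all genes. With the Gata2-low cells as the later group, 3 early T-lineage genes rose, Cd3g by 5.14, Il2ra by 2.89 and Ccr9 by 2.37, where 0.424% of all genes did. In these Gata2-low cells 4 of 9 mast cell or basophil genes rose as well, Cpa3 by 6.01, Mcpt4 by 4.44, Mcpt1 by 3.55 and Cma1 by 3.28, and so did 4 of 12 innate lymphoid or NK genes, led by Gzma by 6.86 and Gzmb by 5.04. Between Gata2-low and Gata2-high cells of day 21, 10 of the 16 early T-lineage genes fell and 0 rose (median -3.23 against 0.00), led by Lck, which fell by 7.79, Ptcra by 5.79, Rag2 by 4.58 and Cd3g by 4.48. The 8 TCF/LEF partners, 12 Ikaros and NuRD genes and 4 Myb and SoxC paralogs had 0 past the fold there, the most negative being Tle4 at -1.63 and Mybl2 at -1.45. Tcf7l2 was detected in 9 of 34 Gata2-low cells and 0 of 22 Gata2-high cells, which allows a share of up to 13.6%.

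Markers of other cell types moved in the same comparisons. Day-14 cells had 4 of 7 neutrophil or monocyte genes past the fold higher than iHECs, where 25.7% of all genes were. Of these 7 genes only 1 passed the filter on low values that this share rests on. An example was Mpo, detected in 17 of 21 day-14 cells and 0 of 65 iHECs. The mean of the 7 genes lay between 0.12 and 5.39 per cell at day 14 against 0.00 and 3.38 in iHECs. Innate lymphoid or NK genes had 0 of 12 past the fold up to day 17 and 4 of 12 from day 17 to day 21, Gzmb by 8.32, Gzma by 4.77, Id2 by 4.39 and Tox by 2.46. The mast cell or basophil genes had 5 of 9 past the fold higher at that step. Within day 21, Gzmb was higher in Gata2-high than in Gata2-low cells by 8.33 (mean log2(TPM + 1) of 13.53 against 5.20) and Id2 by 2.73, whereas Gzma was lower, with a difference of -5.32. Of the B-lineage genes, Pax5 was listed at 0 in all 160 cells, but Cd79b had a mean log2(TPM + 1) of 3.79 at day 17 and fell by 3.22 to day 21 and by 2.85 to its Gata2-low cells. Of the erythroid genes 0 passed the fold in any comparison, and of the 4 megakaryocyte genes 1 fell, Itga2b, from iHEC to day 14. Stromal genes, a check for OP9-DL1 RNA, averaged no more than 1.68 in any cell, and Col1a1 passed 1 TPM in 3 of the 160 cells. The part of these cell types in the levels of the 9 factors was not tested.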

How the data were processed

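The authors amplified polyA RNA of single sorted cells with the Discover-sc WTA Kit V2, aligned reads to mm10 with HISAT2 2.1.0 and estimated expression with StringTie 1.3.4, with versions from the submitters' processing notes. They deposited TPM in 1 table (160 columns, 0 unused), whose columns sum to between 988686 and 999108. TPM keep no counts or depth, and a rise in some genes lowers others. No cell was left out of the main values, and no doublet caller was run.

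Values were analyzed as log2(TPM + 1). Backgrounds were genes above 1 TPM in more than 30 of 160 cells or, within day 21, more than 10 of 56. With 1 sample per group no test was run. A difference of 2 was the fold, chosen for description. Shares carry exact Clopper-Pearson 95% intervals, and a count of 0 allows 3 cells of the total. The ranking and difference steps were run on shuffled values with planted changes and planted copies of a gene. That run checks the code only, not the calls or ranks of the factors. The members, lists and the limit of 31 TPM were chosen with earlier results of these data known. The text names the 9 members, at most 4 genes per list and comparison, the 5 genes most alike and, for other cell types, examples from marker lists. Python 3.11.15, pandas 2.3.3 and scipy 1.17.1 were used.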

Additional observations from a re-analysis of the deposited data

How the results depend on the processing

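Counts of factors past the fold, detected in over 50% of cells or together in a cell, and of genes ranked as alike were recomputed under each alternative; 138 values kept their call and 12 moved. A pseudocount of 10 left 1 factor rising from iHEC to day 14 (Myb), 0 from day 14 to day 17 and 0 falling in Gata2-high cells, where Tcf7 was then -1.90. A pseudocount of 0.1 gave 2 rising from day 14 to day 17 (with Sox4, 2.03) and 1 falling from day 17 to day 21 (Sox4, -2.28). Division by median-of-ratios size factors gave 2 from day 14 to day 17 (Sox4, 2.01), and differences relative to the median of all genes gave 0 (Tcf7, 1.99). With detection above 10 TPM, the median number of factors was 1 in iHECs and 3 in Gata2-high cells, and Bcl11a, Ikzf1 and Myb were found together in 78.6% of day-21 and 59.1% of Gata2-high cells. Of the 5 genes most alike in day-21 cells, Pearson correlation kept 3 for Tcf7, 2 each for Sox4 and Ikzf2, 1 each for Ikzf1 and Myb and 0 for Bcl11a. No called difference changed sign under any alternative. Counting near-identical libraries once, leaving out cells without Ptprc and taking Gata2-low cells alone were chosen after seeing the data, and changed no count past the fold. Gata2 limits of 1 and 100 TPM (34 and 18 high cells) kept Tcf7 past the fold, at -2.22 and -3.78, as did cells with at least 4000 genes, at -4.23. No paired analysis was possible because each group is 1 sample and no test was made. TPM without counts limit what a 0 can show.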
